A study of Mus musculus with 6 samples.

Results

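Immature neutrophils that carry RNA of the secondary granules were examined in single-cell libraries of mouse spinal cord. They were defined as barcodes with at least 5 unique molecular identifiers (UMIs) summed over Camp, Ngp, Ltf, Lcn2 and Chi3l3, at most 1 UMI over the mature neutrophil genes Cxcr2, Mmp9, Il1r2 and Hdc, and at most 1 UMI over the primary granule genes Elane, Mpo, Prtn3 and Ctsg. Of 21919 barcodes, 3360 had at least 200 genes and at most 20% mitochondrially encoded UMIs, and 185 of these met the rule. The members were thus chosen by the measured values of 13 genes, and for those genes the values below are a description with no test.

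The libraries came from 3 groups of 2. SOD1-Nec animals carried the SOD1-G93A transgene, a mutant human superoxide dismutase used as a model of amyotrophic lateral sclerosis, and received Necrostatin-1s, which blocks the kinase RIPK1. SOD1-Veh animals carried the same transgene and received vehicle, and WT-Veh animals were wild type and received vehicle. For all 3 groups the spinal cord was dissociated with Accutase, myelin was taken out, and the live fraction of an OptiPrep gradient in Hibernate A entered Drop-seq, which labels the RNA of each captured cell with a barcode and UMIs. Age, sex, treatment schedule and the number of animals behind a library are not stated in the labels, so every p-value measures the spread between libraries, which may be technical. The transgene is driven by the human SOD1 promoter and is expressed widely, not in a chosen cell type.

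Neutrophils are built in the bone marrow in an ordered sequence. Promyelocytes fill primary (azurophil) granules with Elane, Mpo, Prtn3 and Ctsg; myelocytes and metamyelocytes then stop making these and fill secondary (specific) granules, for which the transcription factor C/EBP epsilon is required; band and segmented cells fill gelatinase granules, gain Cxcr2 and leave for the blood. Division ends at about the metamyelocyte stage, so cells with secondary granule RNA span the last divisions and the first non-dividing steps. These stages are at home in the marrow. The spinal cord itself holds neurons, oligodendrocytes, astrocytes and microglia.

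Total UMIs per library ranged from 1508618 to 1767205. The members held 199003 UMIs in all and between 20036 and 57425 per library. The members' number was 44 and 62 in SOD1-Nec, 13 and 16 in SOD1-Veh, and 28 and 22 in WT-Veh. The median member had 540.5 and 671.5 UMIs in SOD1-Nec, 1184 and 984.5 in SOD1-Veh, and 940.5 and 871.5 in WT-Veh. Members were therefore more numerous and shallower in SOD1-Nec than in either other group. 1 retained barcode sequence occurred in more than 1 library, and it belonged to no member. The caller Scrublet marked 29 of 3360 retained barcodes (0.863%) as doublets, among them 2 members, and these were kept. Spinal cord markers were present in the 2889 retained barcodes outside the granulocyte classes, where oligodendrocyte markers summed to 27345 counts per 1000000 UMIs (CPM), microglial ones to 7839 and astrocyte ones to 2928.

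The 5 secondary granule genes encode the antimicrobial peptide precursor cathelicidin (Camp), neutrophilic granule protein (Ngp), the iron-binding lactoferrin (Ltf), the siderophore-binding lipocalin-2 (Lcn2) and a chitinase-like lectin (Chi3l3, listed by RefSeq as Chil3). The 4 sequences printed here are the 250 bases before the RefSeq transcription start in build GRCm38.p6, 5′ to 3′ on the strand of the gene. They are shown because the rule reads these genes as a unit and C/EBP factors are known to act on their promoters. Capitals mark each match to the C/EBP-type motif TTNNGCAA, searched on both strands (TTGCNNAA on the other), where N is any base.
Camp, chr9:109849457-109849706, minus strand: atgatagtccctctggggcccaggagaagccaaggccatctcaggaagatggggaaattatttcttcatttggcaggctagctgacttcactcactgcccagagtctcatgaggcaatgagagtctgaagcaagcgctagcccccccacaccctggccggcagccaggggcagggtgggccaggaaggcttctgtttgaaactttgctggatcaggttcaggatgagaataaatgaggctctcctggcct
Ngp, chr9:110419558-110419807, plus strand: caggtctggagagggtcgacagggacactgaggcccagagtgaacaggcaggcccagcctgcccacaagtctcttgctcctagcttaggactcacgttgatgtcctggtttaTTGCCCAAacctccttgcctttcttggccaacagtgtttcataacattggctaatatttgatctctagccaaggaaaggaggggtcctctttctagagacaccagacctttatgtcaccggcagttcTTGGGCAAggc
Ltf, chr9:111019042-111019291, plus strand: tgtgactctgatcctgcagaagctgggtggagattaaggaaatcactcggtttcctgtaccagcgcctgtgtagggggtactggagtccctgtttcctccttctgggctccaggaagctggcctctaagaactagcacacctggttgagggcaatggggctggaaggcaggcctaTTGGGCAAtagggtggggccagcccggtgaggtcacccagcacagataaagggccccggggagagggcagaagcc
Lcn2, chr2:32387740-32387989, minus strand: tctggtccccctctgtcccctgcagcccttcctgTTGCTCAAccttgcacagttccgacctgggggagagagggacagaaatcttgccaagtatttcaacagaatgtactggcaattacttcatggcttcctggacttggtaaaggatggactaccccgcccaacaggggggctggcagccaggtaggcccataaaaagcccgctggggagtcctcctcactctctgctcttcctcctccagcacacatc
The motif was counted in windows from 250 bases before to 50 after the start. Ngp held 2 matches, with first bases 138 and 11 bases before the start. Ltf held 1, at 75 bases before the start, and Lcn2 held 1, at 216 bases before it. Camp and Chi3l3 held none, so 3 of the 5 windows held the motif. Of all 32851 RefSeq promoter windows of the same length in that table, 10.8% held at least 1 match and 0.941% held 2 or more. A match is a description of letters and was not tested as a binding site, and no match says only that these letters are not in the window.

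Camp supplied the most UMIs among the 5 genes that chose the members. It was found in 90.8% of members with 9103 UMIs, Ngp in 88.65% with 5652, Ltf in 80.5% with 1343, Lcn2 in 85.4% with 1255 and Chi3l3 in 80.5% with 1190. Camp made up 49.1% of these UMIs and Ngp 30.5%. In barcodes with at least 5 UMIs of microglial markers, which should lack these genes, a Camp UMI was found in 3.97% and 2.37% in SOD1-Nec, 5.88% and 3.33% in SOD1-Veh, and 9.02% and 5.88% in WT-Veh, at median depths between 516 and 854.5 UMIs. These microglial barcodes were taken from outside the granulocyte classes, so each held under 5 secondary granule UMIs. The rule itself fixes that members hold these genes, so the contrast was set by the choice of barcodes.

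The share of each gene in a library's secondary granule UMIs varied. Camp made up 53.7% and 55.3% in SOD1-Nec, 47.9% and 42.05% in SOD1-Veh, and 43.1% and 44.1% in WT-Veh, and the 2 SOD1-Nec libraries were the highest. Chi3l3 made up 4.71% and 5.46% in SOD1-Nec, 4.64% and 9.33% in SOD1-Veh, and 7.66% and 8.40% in WT-Veh. For Chi3l3 the groups overlapped, since the SOD1-Veh libraries stood at both ends of the range. As a level, Camp had 47988 and 50605 CPM in SOD1-Nec, 61340 and 36162 in SOD1-Veh, and 31554 and 46989 in WT-Veh, so the groups overlapped on that scale.

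The genes the rule kept low were scarce by construction. Members could hold 1 UMI of the mature set, and 8 did so for Cxcr2, the chemokine receptor of circulating neutrophils, 23 for Mmp9, gelatinase B, 13 for Il1r2, a decoy receptor, and 19 for Hdc, histidine decarboxylase. For the primary granule proteases and peroxidase, 3 members held a UMI of Elane, 1 of Mpo, 5 of Prtn3 and 0 of Ctsg, which for 185 barcodes allows a share of up to 1.62%. At the edges of the rule, 6 members held exactly 5 secondary granule UMIs and 12 further barcodes held 4. 63 members held 1 mature UMI, and 39 barcodes that met the other limits held 2. 9 members held 1 primary granule UMI and 1 barcode held 2.

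The neutrophil part of the label was checked against S100a8 and S100a9, the calprotectin genes that neutrophils express at very high levels. The rule did not use them. S100a8 was found in 95.7% of members and gave 9.81% of all their UMIs, more than any other gene. S100a9 was found in 91.9% of members and gave 9.25%. Among microglial marker barcodes, 8.73% and 4.73% in SOD1-Nec, 11.8% and 13.3% in SOD1-Veh, and 24.6% and 21.0% in WT-Veh held a UMI of S100a8. The median member devoted 22.5% of its UMIs to the pair. 8 members held no UMI of either gene, and 25 held less than 5% of their UMIs in the pair.

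The members were of more than 1 kind. In 157 members the 5 secondary granule genes made up at least 2% of UMIs, with a median of 10.8%, and all 157 held S100a8 or S100a9, at a median of 24.5% of UMIs. In the other 28 the granule genes made up a median of 0.866% and the S100 pair a median of 0.190%. This limit of 2% was set after the values were seen. Of these 28 members, 3 and 8 were in SOD1-Nec, 2 and 5 in SOD1-Veh, and 6 and 4 in WT-Veh.

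The members that needed Chi3l3 to meet the rule carried monocyte genes. 20 members reached 5 UMIs only through Chi3l3, a gene that inflammatory monocytes and macrophages also express. Their summed UMIs gave Ccr2, the chemokine receptor of inflammatory monocytes, 1616 CPM, against 31.4 CPM in the 157 members at or over 2%. F13a1, coagulation factor XIII A of monocytes, had 2304 CPM against 25.1 CPM in the 157, and Camp 103 CPM against 56606 CPM. Ly6g, the neutrophil surface antigen, had 0 UMIs in the 20, which allows up to 103 CPM, and 144.5 CPM in the 157. By the S100 genes the neutrophil part of the label thus fits the 157 members, and the label goes against the leading genes of the 20. The S100 pair does not show the stage. Its median share was also 26.2% in barcodes with at least 5 secondary, at least 2 mature and at most 1 primary granule UMI. Results below are for all 185 members of the rule, and those that rest on the 28 are also given without them.

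**Figure D1:**
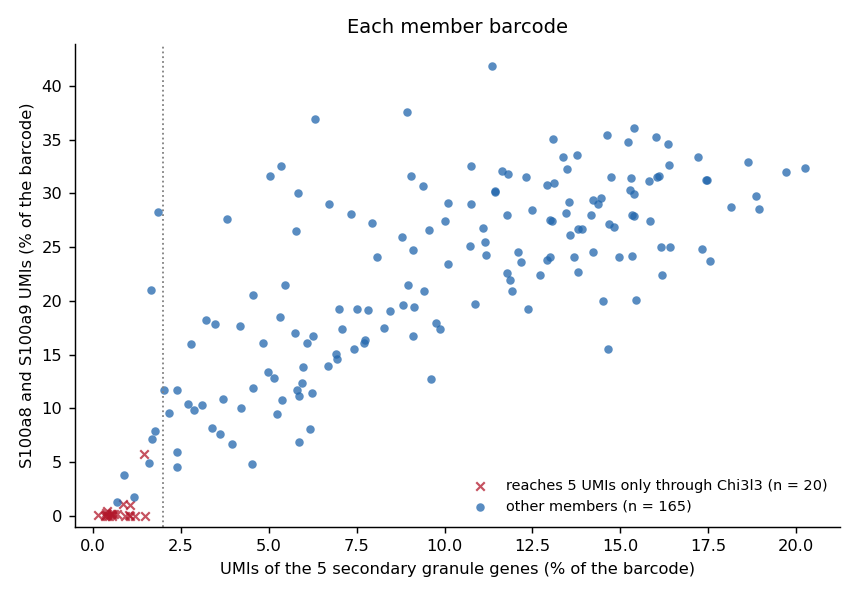
Each point is 1 of the 185 members, placed by the percentage of its UMIs in the 5 secondary granule genes (horizontal) and in S100a8 and S100a9 (vertical), with crosses for the 20 members that reach 5 UMIs only through Chi3l3 and the dotted line at 2%. The crosses lie at the lower left, and the 157 members right of the line have a median of 24.5% S100 UMIs.

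Markers of other cell types were present in most members. Only 9 of 185 members had at most 1 UMI of every other type's marker list, red cells not counted. Monocyte markers summed to 1839 and 3483 CPM in SOD1-Nec members, 2046 and 4792 in SOD1-Veh, and 7918 and 3047 in WT-Veh, with 9 to 12 of the 12 genes found in each library. Oligodendrocyte markers summed to 10645 and 11215 CPM in SOD1-Nec, 5141 and 5037 in SOD1-Veh, and 6989 and 5771 in WT-Veh. Both SOD1-Nec libraries were the highest for oligodendrocyte markers, and WT-Veh 1 was the highest for monocyte markers. The defining genes of eosinophils, basophils and mast cells, Prg2, Mcpt8, Cpa3 and Fcer1a, had 0 UMIs in members, which allows up to 15.1 CPM.

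The members were set beside the other granule classes, in an order fixed by the rule genes that define each class. The classes were 23 barcodes with at least 3 primary granule UMIs and under 5 secondary ones, 14 with at least 5 secondary and at least 2 primary granule UMIs, the 185 members, 179 with at least 5 secondary, at least 2 mature and at most 1 primary granule UMI, and 70 with at least 2 mature and under 5 secondary UMIs. Fcnb, the lectin ficolin B of myelocytes, had 97.8, 3872, 804, 218 and 10.8 CPM over these 5 classes in that order. Ms4a3, a gene of granulocyte progenitors, had 332, 525, 60.3, 0 and 10.8 CPM. Both were highest in the class with primary and secondary genes, and members came next for Fcnb. Cebpe, the factor named above, had 0, 262.5, 156, 92.5 and 0 CPM.

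Mmp8 and Retnlg were higher in the 2 classes with mature genes than in the other 3. Mmp8, neutrophil collagenase, had 137, 131, 679, 5533 and 2725 CPM over the 5 classes. Retnlg, a resistin-like protein of mature neutrophils, had 0, 164, 1166, 13993 and 9114 CPM. Ly6g had 0, 0, 116, 158 and 0 CPM, with UMIs in members and the class with both sets of genes and none in the mature class, and a UMI of it was found in only 9.73% of members. These are sums over unequal numbers of barcodes, and the 70 mature barcodes include 1 of 43509 UMIs led by Malat1, Dbi, mt-Rnr2 and Nnat. Without it Mmp8 had 5131 CPM and Retnlg 17145 CPM in the mature class.

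**Figure D2:**
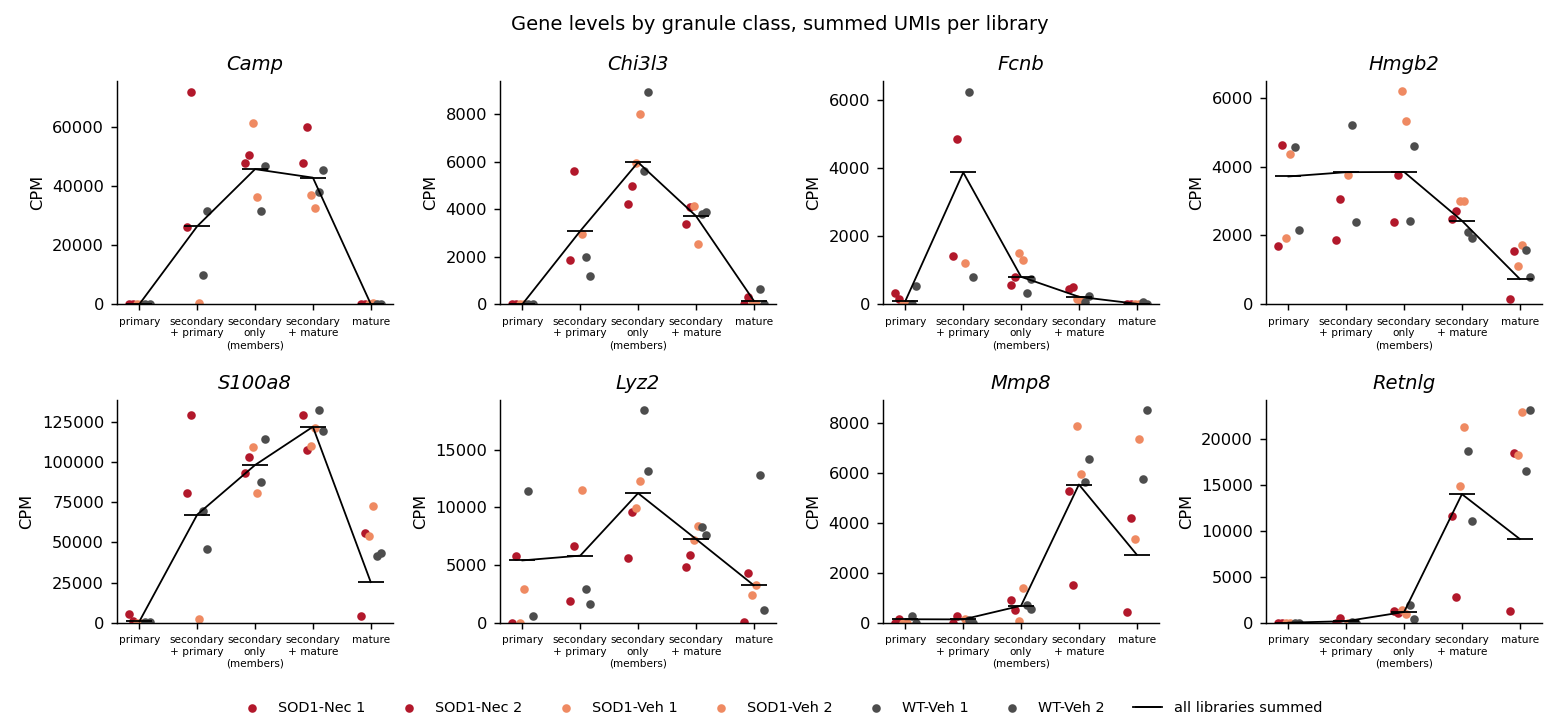
Levels of 8 genes in CPM of the summed UMIs (linear axes) over the 5 granule classes from primary to mature, with a point per library and a line through all libraries summed. Fcnb peaked in the class with primary and secondary genes, while Retnlg had 1166 CPM in members and 13993 in the class with secondary and mature genes.

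RNA of cell division was common among members. After each barcode was thinned to 500 UMIs and shallower ones were left out, a UMI of the 30 cell division genes was found in 70.0% of primary barcodes (14 of 20), 66.7% of those with both granule sets (8 of 12), 45.8% of members (66 of 144), 17.6% of those with secondary and mature genes (28 of 159) and 19.5% of mature ones (8 of 41). The exact 95% binomial interval was 37.5% to 54.3% for members and 12.03% to 24.4% for the class with secondary and mature genes. Unthinned, the share was 48.65% in members. Mki67, a marker of cycling cells, had UMIs in 24.9% of members and Top2a, topoisomerase II alpha, in 22.7%. Intervals cover counting error only, and barcodes are not replicates.

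The members were compared with the 179 barcodes that held both secondary and mature genes, in all 6 libraries with the library as a block. The comparison was added after the data were seen, because these barcodes share the secondary granule rule with the members and differ by the 4 mature genes. The 13 rule genes were not tested. Genes that go with those 4 mature genes across neutrophils differ through how the sets were made, so the calls describe the sets. By the quasi-likelihood test of edgeR with Benjamini-Hochberg adjustment, 110 of 257 tested genes (42.8%) passed an adjusted p of 0.05, of which 65 (25.3%) were higher and 45 (17.5%) lower in members. Median depth was 727 UMIs in members and 762 in the others.

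Much of this rested on the members with little granule RNA. Without those 28, 40 of 220 genes were called (18.2%), 12 higher (5.45%) and 28 lower (12.7%), and 36 of the 40 were among the first 110. The list of 110 is therefore given below with the value without them where it moves a call. Leaving out the library WT-Veh 1 gave 71 calls. The summed monocyte markers were 3884 CPM in members and 1354 in the later class, and their part in the calls was not tested.

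Retnlg had the largest fall of the genes called. Its normalised level in members was 1296 and 1084 CPM in SOD1-Nec, 1308 and 806 in SOD1-Veh, and 1727 and 346 in WT-Veh, against 11856 and 2956 in SOD1-Nec, 16335 and 22258 in SOD1-Veh, and 19842 and 11254 in WT-Veh in barcodes with secondary and mature genes. Members were lower in each of the 6 libraries, and the ranges did not overlap. The mean was 1094.5 ± 475 CPM in members and 14083 ± 6955 CPM in the others (SD, n = 6 libraries). The log2 fold change was -3.55 ± 0.39 (SE), with an edgeR quasi-likelihood adjusted p of 6.245e-05.

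Mmp8, whose product is stored in secondary granules, came next. Members had 950 and 482 CPM in SOD1-Nec, 48.5 and 1191 in SOD1-Veh, and 648 and 519 in WT-Veh, against 5413 and 1647 in SOD1-Nec, 8653 and 6195 in SOD1-Veh, and 5949 and 6690 in WT-Veh in barcodes with secondary and mature genes. Members were again lower in every library, and SOD1-Veh 1 had the widest gap. The log2 fold change was -3.06 ± 0.41 (edgeR quasi-likelihood adjusted p = 0.000376).

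Fcnb ran in the opposite direction. Members had 576 and 792 CPM in SOD1-Nec, 1454 and 1121 in SOD1-Veh, and 297 and 727 in WT-Veh, against 447 and 549 in SOD1-Nec, 169 and 110 in SOD1-Veh, and 54.9 and 250 in WT-Veh in the later class. Members were higher in every library, though the ranges over libraries overlapped. The log2 fold change was 1.61 ± 0.38 (edgeR quasi-likelihood adjusted p = 0.0055) and 1.97 without the 28 members.

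Of 11 specific and gelatinase granule genes tested outside the rule, 2 rose in members (Fcnb and Lyz2, lysozyme). 2 fell (Mmp8 and Lrg1, a leucine-rich glycoprotein of neutrophil granules). Over all 257 genes 25.3% were called higher and 17.5% lower, so calls in this list were near or below the general share. The same shares apply to the lists that follow. The median log2 change of the list was -0.42, beside 0.05 over all 257 genes. Lyz2 rose by 0.51 on the log2 scale and was no longer called without the 28 members, at 0.40 and an edgeR quasi-likelihood adjusted p of 0.0871. Lrg1 fell by 1.46 ± 0.29 and stayed called. Of 5 mature neutrophil genes outside the rule, 4 fell and none rose, with a median of -1.05. They were Retnlg, G0s2, a lipase inhibitor, Msrb1, a methionine sulfoxide reductase, and Fpr2, a formyl peptide receptor, and Fpr2 lost its call without the 28 members (-0.63, edgeR quasi-likelihood adjusted p = 0.181).

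Of 10 surface and identity genes tested, 1 rose and 6 fell in members, and without the 28 members 2 of 9 fell. Itgam, the integrin CD11b that rises as neutrophils mature, had a log2 change of -1.37 ± 0.25. Gp49a, a receptor gene with near-identical paralogs whose reads may be split, had -2.10 ± 0.32. Both kept their calls. Large falls outside that list were Pygl, glycogen phosphorylase of liver type, at -2.09 ± 0.22, Thbs1, thrombospondin 1, at -2.03 ± 0.36, and Dgat1, a triglyceride synthase, at -1.55 ± 0.25. For Pygl members had 146 to 381 CPM over the 6 libraries and the later class 1056 to 1719 CPM, with no overlap.

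Of 6 S100 and annexin genes, 4 fell in members and none rose, with a median of -0.69. S100a6, a calcium-binding protein, fell by 1.72 ± 0.25 on the log2 scale, and by 2.39 without the 28 members. S100a8 averaged 93686 ± 16477 CPM in members and 126188 ± 8819 CPM in the later class (SD, n = 6 libraries), a log2 change of -0.45 ± 0.15 (edgeR quasi-likelihood adjusted p = 0.0327). Leaving out SOD1-Nec 1, SOD1-Nec 2, SOD1-Veh 2 or WT-Veh 1 each ended that call, with adjusted p-values of 0.0651, 0.0611, 0.0586 and 0.0961 by the same test. Without the 28 members its change was 0.02, with an adjusted p of 0.829 by the same test, so the fall of S100a8 rested on them. S100a9 fell by 0.71 ± 0.15, and by 0.24 without them, where it was still called (edgeR quasi-likelihood adjusted p = 0.0315).

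Ribosomal protein genes were the most numerous among those that rose. Of 40 tested, 30 rose in members and none fell, with a median log2 change of 0.98. Rpl3 had a log2 change of 1.74 ± 0.31, Rpl19 1.63 ± 0.26 and Rps19 1.58 ± 0.23. Without the 28 members only 27 passed the filter on low counts and 5 of them rose, with a median of 0.65, so the count of 30 rested on those members. Many of these genes have processed pseudogenes to which reads may be split, so single values are uncertain.

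Chromatin genes of dividing cells rose in the members in both versions. Of 7 tested, 5 rose and none fell, with a median of 0.97, and without the 28 members 3 of 7 rose, with a median of 1.11. Ptma, the histone-binding prothymosin alpha, had 1958 and 2099 CPM in SOD1-Nec members, 1648 and 1787 in SOD1-Veh, and 998 and 2629 in WT-Veh, against 224 and 1098 in SOD1-Nec, 971 and 110 in SOD1-Veh, and 311 and 500 in WT-Veh in the later class. Members were higher in every library, though the ranges over libraries overlapped. Its log2 change was 1.83 ± 0.31 (edgeR quasi-likelihood adjusted p = 0.00167). Hmgn2, a nucleosome-binding protein, rose by 1.00 ± 0.23, and Hmgb1, a DNA-bending protein, by 0.97 ± 0.22, and both kept their calls without the 28 members.

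The remaining lists moved little or were small. Hsp90aa1, the inducible cytosolic chaperone, rose by 1.58 ± 0.29, as did Ppia, cyclophilin A, by 1.75 ± 0.32. Of 5 granulocyte transcription factors 2 fell, Junb by 0.82 ± 0.23 and Cebpb by 0.70 ± 0.22, and both kept their calls without the 28 members. Cebpb is the C/EBP member that drives emergency granulopoiesis, and it lost its call without SOD1-Nec 2 (edgeR quasi-likelihood adjusted p = 0.0585) or SOD1-Veh 1 (0.0544). Of 9 NADPH oxidase and reactive oxygen genes 2 fell, among them Ncf1, the p47phox subunit, by 0.77 ± 0.18, which lost its call without the 28 members (-0.36, edgeR quasi-likelihood adjusted p = 0.194). Of 4 primary granule genes outside the rule 2 fell, Srgn, the granule proteoglycan serglycin, by 1.27 ± 0.25 and Mgst1, a glutathione transferase, by 0.78 ± 0.22. None of 8 nuclear oxidative phosphorylation genes or 2 glycolysis genes was called.

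**Figure D3:**
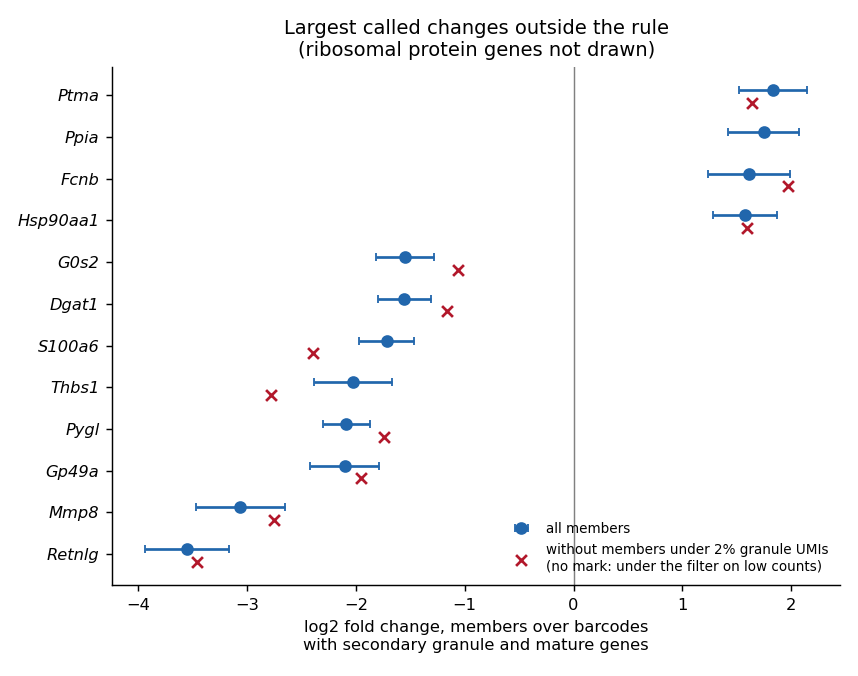
Log2 fold changes of members over barcodes with secondary and mature genes (horizontal), for the genes other than ribosomal protein genes among the 8 with the largest rise and the 8 with the largest fall, with bars for the SE over 6 libraries and crosses for the value without the 28 members under 2% granule UMIs. Retnlg at -3.55 and Mmp8 at -3.06 lie farthest from 0 with all members; without the 28 members Retnlg, Thbs1 and Mmp8 do, at -3.46, -2.78 and -2.75.

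Against the 70 mature barcodes with under 5 secondary UMIs, 13 of 229 tested genes were called (5.68%) by edgeR, 8 higher (3.49%) and 5 lower (2.18%) in members. Genes that go with the secondary or mature rule genes differ here through how the sets were made, so these calls too describe the sets. The log2 change was -3.70 ± 0.63 for Retnlg, -3.18 ± 0.63 for Ccl6, a chemokine of myeloid cells, and -2.21 ± 0.52 for S100a6. Serpinb1a, the serpin that inhibits neutrophil elastase, had 146 UMIs in members and 4 in the mature class and a fitted log2 change of 3.96 ± 0.76. Others that rose were Hmgn2 (2.94), Cybb, the catalytic subunit of NADPH oxidase (2.496), Lyz2 (2.29), Anxa1, annexin A1 (1.95), and Hmgb2, a chromatin protein of dividing cells (1.95). These calls depend on a single mature barcode: without the one of 43509 UMIs, in SOD1-Nec 1, 39 of 184 genes were called, 12 of them shared with the first 13. Without the 28 members 14 of 137 were called (10.2%), 8 higher (5.84%) and 6 lower (4.38%), and 8 were shared. Leaving out the library SOD1-Nec 1 gave 41 calls and leaving out SOD1-Veh 1 gave 6; without SOD1-Veh 1, Hmgb2, Anxa1, Lyz2, Cybb, Ifitm6, Ly6c2 and S100a6 were not called. Monocyte markers summed to 3884 CPM in members and 1640 in the mature class. Markers of eosinophils, basophils and mast cells summed to 25.1 CPM in members and 669 in the mature class, where Mcpt8 had 259 CPM. The part of either list in these calls against the mature class was not tested. S100a8 missed the threshold against this class (log2 change 1.36, edgeR quasi-likelihood adjusted p = 0.123), but it was higher in members in all 16 alternatives run and called in 10 of them, with adjusted p-values from 0.000123 without a filter on low counts (edgeR) to 0.281 without WT-Veh 2 (edgeR). DESeq2 called it at an adjusted p of 0.0388, and without the largest mature barcode edgeR called it at 0.0111. S100a9 had a log2 change of 0.83 (edgeR quasi-likelihood adjusted p = 0.426) and was called in 2 of the 16.

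The members also differed among themselves by division. 79 members held at least 2 UMIs of the cell division genes, 95 held none, and 11 with 1 were left out. The 2 sets were compared in the 4 libraries with at least 5 of each, which were both SOD1-Nec and both WT-Veh. The division genes were not tested. Genes that go with them differ through how the sets were made, so these calls too describe the sets. Of 156 tested genes, 11 were called (7.05%) by edgeR, 6 higher (3.85%) and 5 lower (3.21%) in dividing members. Dividing members had a median of 1030 UMIs and the others 605, and since the choice counts UMIs, depth and division cannot be told apart in it.

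Retnlg and Mmp8 separated the dividing members from the others. Retnlg had 123 and 131 CPM in dividing members of SOD1-Nec and 242 and 103 in those of WT-Veh, against 2890 and 2563 in other members of SOD1-Nec and 4640 and 1090 in those of WT-Veh. No library overlapped with the other set. The log2 change was -4.16 ± 0.28 (edgeR quasi-likelihood adjusted p = 2.72e-05). Mmp8 averaged 127 ± 111 CPM in dividing members and 1546 ± 460 CPM in others (SD, n = 4 libraries), a log2 change of -3.45 ± 0.49. Both genes kept their calls without the 28 members, at -3.94 for Retnlg and -4.47 for Mmp8.

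Chromatin genes of dividing cells were higher in dividing members, which the choice by division genes favours. All 5 tested of that list rose, with a median of 1.93, beside 0.03 over all 156 genes. They were Ptma at 2.17 ± 0.31, Dek, a DNA-binding oncoprotein, at 2.01 ± 0.43, Hmgb1 at 1.93 ± 0.36, Hmgb2 at 1.74 ± 0.27 and Hmgn2 at 1.39 ± 0.31. Hmgb2 had 4305 and 4729 CPM in dividing members of SOD1-Nec and 3045 and 5782 in those of WT-Veh, against 1075 and 1435 in other members of SOD1-Nec and 1040 and 1772 in those of WT-Veh, with no overlap. Fcnb was higher in dividing members in all 4 libraries but was not called (1.52 ± 0.42, edgeR quasi-likelihood adjusted p = 0.0686). Ifitm6, a gene of the interferon-induced transmembrane family, fell by 1.73 ± 0.27.

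These calls depend on the libraries: leaving out SOD1-Nec 1 left 1 call and leaving out SOD1-Nec 2 left 2. Mmp8, Hmgb1, Hmgb2, Hmgn2 and Ifitm6 lost their calls in both cases. Without the 28 members with little granule RNA, 10 of 100 genes were called, and 8 of them were shared. S100a8 and S100a9 were not called between dividing and other members, at -0.44 ± 0.39 and -0.57 ± 0.36. Haemoglobin made up 1.81% of UMIs in dividing members and 2.66% in the others.

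Members made up 6.66% and 7.81% of retained barcodes in SOD1-Nec, 3.26% and 3.66% in SOD1-Veh, and 5.44% and 3.97% in WT-Veh. Both SOD1-Nec libraries were above the other 4, and both SOD1-Veh libraries were below both WT-Veh ones. The means were 7.23% ± 0.815 in SOD1-Nec, 3.46% ± 0.285 in SOD1-Veh and 4.70% ± 1.04 in WT-Veh (SD, n = 2). The difference was 3.77 percentage points for SOD1-Nec over SOD1-Veh, 2.53 for SOD1-Nec over WT-Veh and -1.245 for SOD1-Veh over WT-Veh. The exact two-sided permutation test gave p = 0.333 for each of the 3, which is the smallest value that 2 libraries against 2 allow, so no difference could pass 0.05. Exact 95% binomial intervals were 4.88% to 8.83% and 6.04% to 9.90% in SOD1-Nec and 1.75% to 5.51% and 2.11% to 5.88% in SOD1-Veh.

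SOD1-Nec was also highest among granulocytes. Of retained barcodes with at least 5 UMIs over the 13 rule genes, S100a8 and S100a9, members were 45.4% and 56.9% in SOD1-Nec, 21.3% and 21.9% in SOD1-Veh, and 21.4% and 28.95% in WT-Veh. The rule counts UMIs, so a deeper neutrophil more readily reaches 2 mature UMIs and leaves the class; the median retained barcode had 528 and 526 UMIs in SOD1-Nec, 727 and 697 in SOD1-Veh, and 658 and 577 in WT-Veh. After these barcodes were thinned to 300 UMIs, members were 60.4% and 72.2% in SOD1-Nec, 39.6% and 38.2% in SOD1-Veh, and 38.4% and 50% in WT-Veh. SOD1-Nec stayed above the other groups, and SOD1-Veh and WT-Veh overlapped. With at least 400 genes per barcode the shares of retained barcodes were 3.93% and 8.02% in SOD1-Nec, 4.71% and 4.66% in SOD1-Veh, and 6.22% and 5.47% in WT-Veh, so SOD1-Nec overlapped with both other groups.

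**Figure D4:**
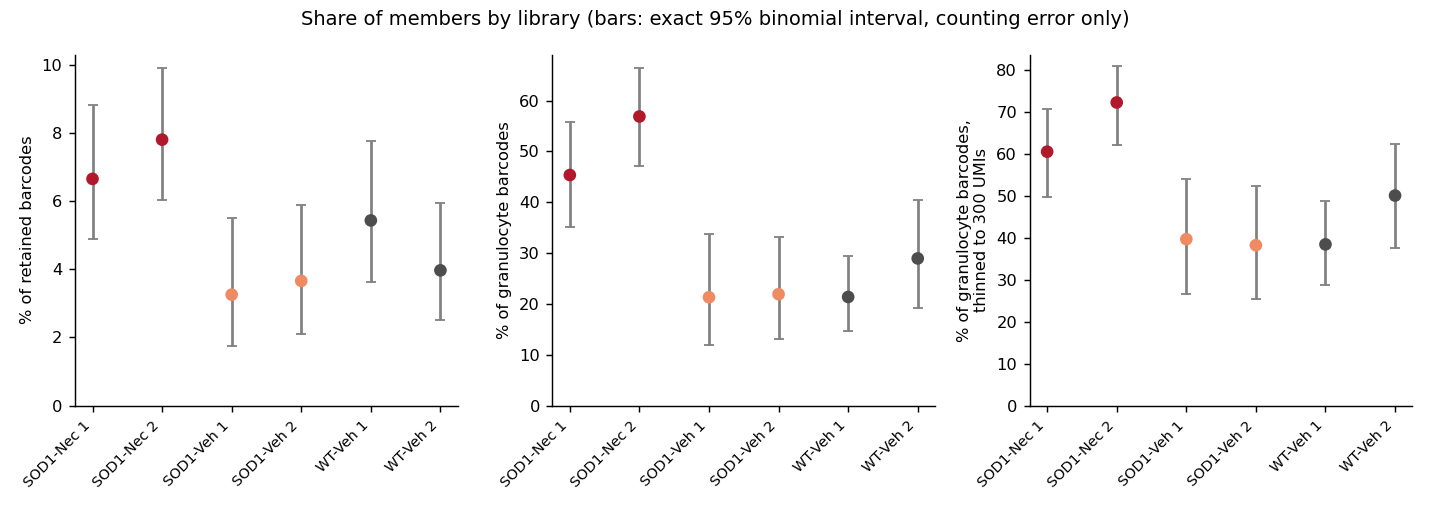
Members as a percentage of retained barcodes (left), of granulocyte barcodes (middle) and of granulocyte barcodes thinned to 300 UMIs (right), with a point per library and bars for the exact 95% binomial interval. Both SOD1-Nec libraries lie highest in each panel, at 6.66% and 7.81% of retained barcodes on the left.

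Dividing members showed no order by group. A division UMI after thinning to 500 UMIs was found in 35.7% (10 of 28) and 58.7% (27 of 46) of SOD1-Nec members, 66.7% (8 of 12) and 20% (3 of 15) of SOD1-Veh members, and 33.3% (8 of 24) and 52.6% (10 of 19) of WT-Veh members. The libraries of a group lay farther apart than the groups. The means were 47.2% ± 16.3 in SOD1-Nec, 43.3% ± 33.0 in SOD1-Veh and 43.0% ± 13.65 in WT-Veh (SD, n = 2), and the exact permutation p was 1 for SOD1-Nec against SOD1-Veh, 0.667 for SOD1-Nec against WT-Veh and 1 for SOD1-Veh against WT-Veh.

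The effect of the transgene and of Necrostatin-1s on the members' RNA was tested on UMIs summed per library, in 1 edgeR fit of all 6 libraries. In such sums a change in the make-up of the members and a change in RNA per cell cannot be told apart. Of 10256 genes with a UMI in members outside the rule, 463 passed the filter on low counts. The 3 comparisons share libraries.

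The targeted gene came first. The tables hold 1 Sod1 entry, in which the human transgene and the mouse gene are not separated. Members held 53 and 95 Sod1 UMIs in SOD1-Nec, 28 and 55 in SOD1-Veh, and 10 and 4 in WT-Veh. The normalised level was 1687 and 1655 CPM in SOD1-Nec, 1513 and 1909 in SOD1-Veh, and 273 and 150.5 in WT-Veh. All 4 libraries of transgenic animals were above both of WT-Veh, in the order the labels give. The log2 fold change was 2.96 ± 0.45 for SOD1-Veh over WT-Veh (edgeR quasi-likelihood adjusted p = 0.00548), 2.91 ± 0.44 for SOD1-Nec over WT-Veh (adjusted p = 0.00916 by the same edgeR test) and -0.04 for SOD1-Nec over SOD1-Veh. The replicate 1 tables share 1 gene list of 18169 genes and the replicate 2 tables another of 18650; the labels do not say what the numbers stand for. Within each number Sod1 was higher in both transgenic libraries than in WT-Veh. With the number as a block the log2 changes were 2.97 and 2.92, and Sod1 was not called in either comparison (edgeR quasi-likelihood adjusted p = 0.108 for SOD1-Veh and 0.211 for SOD1-Nec over WT-Veh).

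Barcodes with under 100 genes also held Sod1. Its level there was 5210 and 5924 CPM in SOD1-Nec, 3236 and 4229 in SOD1-Veh, and 97.8 and 78.9 in WT-Veh. In SOD1-Nec 1, 712 such barcodes held 213656 haemoglobin UMIs. Red cells and RNA free in the suspension were not told apart in these barcodes. Sod1 per 1000 haemoglobin UMIs was 53.05 and 49.4 in SOD1-Nec members, 571 and 618 in SOD1-Veh members, and 15.3 and 12.2 in WT-Veh members. In barcodes with under 100 genes it was 7.57 and 7.62 in SOD1-Nec, 8.90 and 14.1 in SOD1-Veh, and 0.178 and 0.153 in WT-Veh. The ratio was thus higher in members than in the barcodes with under 100 genes of each library.

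In SOD1-Veh against WT-Veh members, 5 of 463 genes were called (1.08%), 1 higher (0.216%) and 4 lower (0.864%). Without the 28 members 5 of 271 were called (1.85%), 1 higher (0.369%) and 4 lower (1.48%). Sod1 was the one that rose. The 4 that fell were the haemoglobin genes of red cells, Hbb-bt by 2.84 ± 0.59 on the log2 scale, Hba-a1 by 2.62 ± 0.42, Hbb-bs by 2.31 ± 0.37 and Hba-a2 by 2.11 ± 0.39, with edgeR quasi-likelihood adjusted p-values from 0.00548 to 0.0309. The 2 alpha genes, and likewise the 2 beta genes, are near-identical copies, so their separate values are uncertain. Leaving out SOD1-Veh 2 or WT-Veh 2 gave 8 calls each, and Hbb-bt was not called without WT-Veh 1. With the replicate number as a block 0 genes were called, and the 4 haemoglobin genes had edgeR quasi-likelihood adjusted p-values from 0.108 to 0.482.

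In SOD1-Nec against SOD1-Veh members, 5 of 463 genes were called (1.08%), all higher. Among them the 4 haemoglobin genes rose, Hba-a1 by 4.05 ± 0.42, Hbb-bt by 3.81 ± 0.57, Hba-a2 by 3.52 ± 0.38 and Hbb-bs by 3.22 ± 0.38. Hba-a1 had 7925 and 7158 CPM in SOD1-Nec, 540 and 382 in SOD1-Veh, and 3333 and 2219 in WT-Veh, and the 3 groups did not overlap. In SOD1-Nec against WT-Veh members only Sod1 was called (0.216%). Leaving out a library moved the 5 calls of SOD1-Nec against SOD1-Veh to 9 without SOD1-Nec 2, 8 without SOD1-Veh 1, 12 without WT-Veh 1 and 11 without WT-Veh 2. It moved the 1 call of SOD1-Nec against WT-Veh to 4 without SOD1-Nec 2, 5 without SOD1-Veh 1, 6 without SOD1-Veh 2, 3 without WT-Veh 1 and 10 without WT-Veh 2. In each of these the first calls were kept. With the replicate number as a block SOD1-Nec against SOD1-Veh had 3 calls, Hba-a1, Hba-a2 and Hbb-bs, and SOD1-Nec against WT-Veh had 0.

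Haemoglobin genes are made by red cells, so their level in barcodes with under 100 genes is given here. Haemoglobin was 2.78% and 3.35% of member UMIs in SOD1-Nec, 0.245% and 0.3645% in SOD1-Veh, and 1.96% and 1.17% in WT-Veh. In barcodes with under 100 genes it was 68.8% and 77.7% of UMIs in SOD1-Nec, 36.4% and 30.05% in SOD1-Veh, and 55.1% and 51.4% in WT-Veh. For haemoglobin the groups stood in the same order in members and in these barcodes. The part of red cells or free RNA in these calls was not tested.

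**Figure D5:**
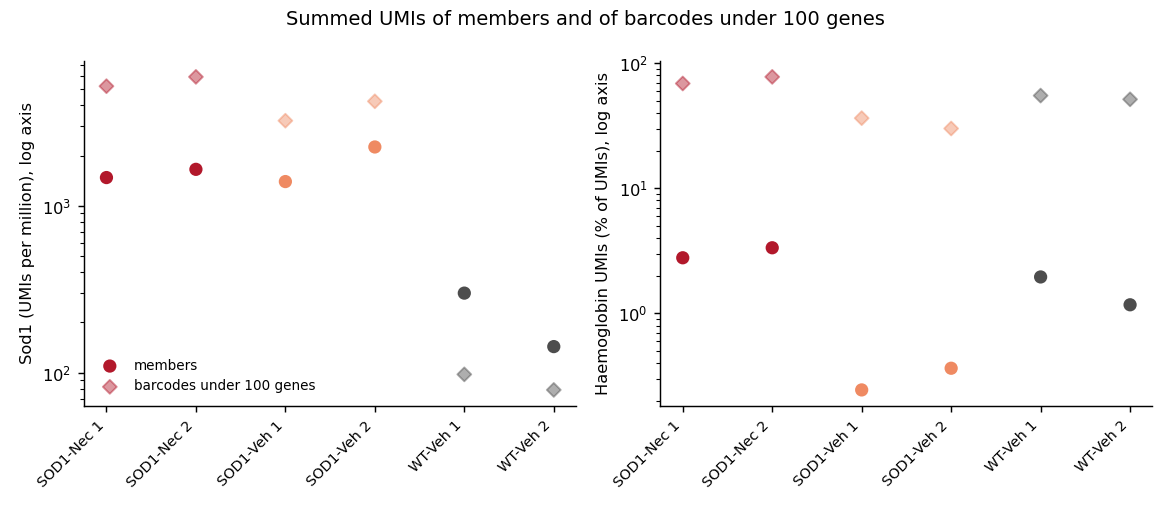
Sod1 in CPM (left) and haemoglobin as a percentage of UMIs (right), both on log axes, in members (circles) and in barcodes under 100 genes (diamonds) of each library. Sod1 in members is low in the 2 WT-Veh libraries, and haemoglobin is lowest in SOD1-Veh in both sets, at 0.245% and 0.3645% of member UMIs.

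No granule, inflammatory or cell death gene was called between groups. In each of the 3 comparisons, 0 of 11 specific and gelatinase granule genes, 0 of 8 S100 and annexin genes, 0 of 8 mature neutrophil genes, 0 of 5 granulocyte transcription factors, 0 of 10 NADPH oxidase genes, 0 of 3 TNF and NF-kB inflammatory genes, 0 of 1 RIPK1 and cell death genes (Mcl1, an anti-apoptotic BCL2 relative), 0 of 53 ribosomal protein genes and 0 of 17 immediate-early and stress genes were called. At an unadjusted p below 0.05 the 463 genes gave 24 in SOD1-Veh against WT-Veh, 37 in SOD1-Nec against SOD1-Veh and 30 in SOD1-Nec against WT-Veh, and DESeq2 called 5, 5 and 1 genes. The immediate-early and stress list had a median log2 change of 0.63 in SOD1-Veh over WT-Veh, beside -0.02 over all genes, with 16 of 17 genes positive, and of -0.42 in SOD1-Nec over SOD1-Veh, beside 0.01; these 2 comparisons share the SOD1-Veh libraries. Without the 28 members the first median was 0.17, and SOD1-Nec against SOD1-Veh had 8 calls of 271 genes (2.95%), all higher, of which 1 was a ribosomal protein gene.

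Individual values of the members' own genes show the width of the error. S100a8 had 106309 and 103170 CPM in SOD1-Nec, 118464 and 68167 in SOD1-Veh, and 79551 and 120024 in WT-Veh, and the groups overlapped. Its log2 change was 0.17 ± 0.41 for SOD1-Nec over SOD1-Veh and -0.10 ± 0.41 for SOD1-Veh over WT-Veh. Fcnb had 637 and 801 CPM in SOD1-Nec, 1621 and 1111 in SOD1-Veh, and 301 and 790 in WT-Veh. Both SOD1-Veh libraries were the highest for Fcnb, but the change of SOD1-Nec over SOD1-Veh was -0.89 ± 0.46 with an edgeR quasi-likelihood adjusted p of 0.649. Ripk1, the kinase that Necrostatin-1s inhibits, had 4 and 1 UMIs in SOD1-Nec members, 1 and 0 in SOD1-Veh, and 1 and 1 in WT-Veh, and a difference was not detectable at this depth.

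Whether the groups differ more in members than in the later class was tested as an interaction in 1 edgeR fit over both. This fit had no library term, although both classes came from the same libraries, so their pairing was not used. Of 469 genes, 0 were called for each comparison by the edgeR quasi-likelihood test, and no other tool was run. At an unadjusted p below 0.05 there were 9 genes for SOD1-Veh against WT-Veh, 29 for SOD1-Nec against SOD1-Veh and 15 for SOD1-Nec against WT-Veh. The smallest adjusted p-values were 0.999, 0.634 and 0.955. No effect of transgene or treatment was therefore shown to be particular to the immature class.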

How the data were processed

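Spinal cord Drop-seq libraries were analysed, 2 per group in 3 groups assigned from the labels. The authors deposited UMI counts per gene and barcode for each library, and per the submitters' processing notes the genome build was mm9; the sources used here name no aligner or annotation. The members and gene lists were chosen with earlier results of these data known. The tables share 17042 genes, and these were used; of 606 list entries 591 matched a gene.

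Barcodes with at least 200 genes and at most 20% mitochondrially encoded UMIs were kept, and members were found by the rule in the text. UMIs were summed per library and class and tested with edgeR 4.0.16 in R 4.3.3 (quasi-likelihood F test, TMM factors, filterByExpr, Benjamini-Hochberg threshold 0.05). In normalised CPM the library size is scaled by TMM; other CPM values are plain UMIs per 1000000. The SE is the log2 fold change divided by the square root of F. In comparisons of groups all 6 libraries entered 1 fit. In comparisons of classes the library was a block, except in the interaction fit, which had no library term. The 13 rule genes stayed in the library size and were not tested. The script was tested on simulated data. Shares were compared with exact permutation tests over libraries (Python 3.11.15, scipy 1.17.1). Scrublet ran in scanpy 1.11.5. Thinning drew a fixed number of UMIs per barcode, and shallower barcodes were left out. Cell type names come from marker lists, and lists of classes were rebuilt here, not taken from the authors.

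Alternatives were DESeq2 1.42.0, other size factors, no filter on low counts, library sizes without the rule genes, other limits on barcodes, doublets left out, each library left out and a replicate block. The sets without members under 2% granule UMIs, without Chi3l3 in the rule and without the largest mature barcode, and the comparison with barcodes of both secondary and mature genes, were added after the data were seen. Named genes were the rule genes, Sod1, S100a8, S100a9, Ripk1, up to 8 called genes in each direction with the largest change and 1 direction in all libraries, up to 3 genes of each list with the smallest p, and, where fewer than 10 were called, 4 more in each direction. Ccr2, F13a1, Ms4a3, Cebpe, Lyz2 and Fpr2 were named after their values were seen. Some called genes are not reported here.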

Additional observations from a re-analysis of the deposited data

How the results depend on the processing

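Of the values for single genes under all alternatives, 1065 kept direction and side of the threshold, 125 lost their call, 12 gained one (S100a8 in 10 and S100a9 in 2, both against mature neutrophils) and 26 changed sign. The differences in the share of members kept their direction in every alternative run, and leaving out each library gave 3.20 to 4.35 percentage points for SOD1-Nec over SOD1-Veh, 1.80 to 3.26 for SOD1-Nec over WT-Veh and -1.98 to -0.51 for SOD1-Veh over WT-Veh; with at least 400 genes per barcode they were 1.29, 0.1295 and -1.16. The share of dividing members changed sign. Leaving out each library gave -22.98 to 23.69 points for SOD1-Veh over WT-Veh, -19.47 to 27.2 for SOD1-Nec over SOD1-Veh and -7.27 to 15.72 for SOD1-Nec over WT-Veh. Unthinned it was -13.47 for SOD1-Nec over SOD1-Veh and -5.535 for SOD1-Nec over WT-Veh, and with at most 10% mitochondrial UMIs it was -2.025 for SOD1-Veh over WT-Veh.

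The number of called genes moved as follows. SOD1-Veh against WT-Veh had 4 to 8 calls with each library left out. SOD1-Nec against SOD1-Veh had 5 to 12 with each library left out, 8 without members under 2% granule UMIs and 9 with Chi3l3 left out of the rule. SOD1-Nec against WT-Veh had 1 to 10 with each library left out and 2 with no filter. Members against the mature class had 6 to 41 calls with each library left out, 29 by DESeq2, 61 with no filter, 5 at 10% mitochondrial UMIs, 29 with at least 10 secondary granule UMIs, 21 without Chi3l3 and 39 without the largest mature barcode. Members against barcodes with secondary and mature genes had 71 to 119 with each library left out, 49 with at least 10 UMIs (24 higher, 25 lower), 40 without members under 2% granule UMIs and 49 without Chi3l3. With library sizes that leave out the rule genes, 114 were called there, 58 higher and 56 lower, and with no filter 103, 78 higher and 25 lower. Dividing against other members had 1 to 10 with each library left out and 6 at 10% mitochondrial UMIs. With no filter the median log2 change of all genes was 0.36 for SOD1-Nec over SOD1-Veh, 0.21 for SOD1-Nec over WT-Veh, 0.28 over the mature class, 0.27 over the class with both gene sets and 0.64 for dividing members. The cause was not tested.

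With the replicate number as a block, SOD1-Veh against WT-Veh had 0 calls, SOD1-Nec against SOD1-Veh 3 and SOD1-Nec against WT-Veh 0. The main fits had group as their only term, although same-numbered tables share a gene list. The deviations of same-numbered libraries correlated at 0.0049 for SOD1-Nec with SOD1-Veh, -0.16 for SOD1-Nec with WT-Veh and -0.28 for SOD1-Veh with WT-Veh. These correlations did not set that choice, and they do not show that a block is needless.

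Sign changes of single genes, none of them called under the alternative, were these. With each library left out, SOD1-Veh over WT-Veh gave -0.5189 to 0.2224 for S100a8 and -0.8486 to 0.2177 for S100a9, above 0 without SOD1-Veh 2 or WT-Veh 2. SOD1-Nec over SOD1-Veh gave -0.2234 to 0.203 for Sod1, -0.1172 to 0.5872 for S100a8 and -0.1493 to 0.9127 for S100a9, each turning without SOD1-Veh 2. SOD1-Nec over WT-Veh gave -0.2023 to 0.4095 for S100a8 and -0.1868 to 0.3757 for S100a9, and members over the mature class -0.5003 to 0.3229 for Sod1. With no filter Sod1 had 0.2017 for SOD1-Nec over SOD1-Veh and 0.6877 over the mature class. For SOD1-Nec over WT-Veh, S100a8 and S100a9 had -0.1702 and -0.1865 with at least 10 UMIs, -0.3818 and -0.396 without members under 2%, and -0.5104 and -0.531 without Chi3l3. For SOD1-Nec over SOD1-Veh, S100a8 had -0.01378 without members under 2% and -0.09703 without Chi3l3. Over the class with both gene sets, S100a8 had 0.02197 without members under 2%. In dividing members S100a8 and S100a9 had 0.2148 and 0.08907 without members under 2%, and 0.1271 and 0.005365 without Chi3l3.

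The comparison with primary granule progenitors was not run, since 1 library held 5 or more of them. Leaving out members with other types' markers was not run, since 9 members would be left. Depth limits what can be seen: 463 of 10256 genes had enough UMIs for a test between groups.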
